A study of Mus musculus with 72 samples.

Results

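Receptor tyrosine phosphatases are membrane proteins that carry an extracellular adhesion part and an intracellular phosphatase part. The 10 genes described here are Ptprd, Ptprf, Ptprs, Ptprm, Ptprk, Ptprt, Ptprg, Ptpro, Ptprj and Ptprn2, of 21924 protein-coding genes annotated in GENCODE release M21 on mm10. Differential chromatin sites were taken as theirs where they overlapped the gene body or the 1000 bp before its start by at least 1 bp. Of 36113 sites deposited in 5 tables, 102 met this rule, and 101 of them passed an adjusted p of 0.05, of 35754 sites that did so in all. A site passed in 9 of the 10 genes, and Ptprs held none.

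The study profiled lysine 27 of histone H3 carrying 1 or 2 methyl groups (H3K27me1 and H3K27me2), together with an IgG antibody background, by CUT&RUN, in which an antibody directs a nuclease to release the DNA around a chromatin mark. All 72 samples came from the nucleus accumbens, a ventral striatal region for reward and motivation, of male mice labelled wildtype. One cohort had undergone chronic social defeat stress: 4 susceptible, 4 resilient and 4 control libraries per mark were compared. The other compared 3 H3K27me1 libraries of mice with early life stress (ELS) and subthreshold defeat against 3 of mice labelled as standard controls. These groups differ in both treatments, so early life stress and subthreshold defeat cannot be told apart there. Where a site, count or library is called ELS below, this combined comparison is meant. Ages and strains are not given in the sources used here. The tables hold 8 groups and 30 mark libraries, and the other groups were not analysed here. In the defeat tables the control libraries are the same for susceptible and resilient mice, so those comparisons are not independent. Whether each library stands for its own animal is not said in the labels; p-values that take the spread between libraries into account therefore measure only the spread between samples, and that spread may be technical. The tissue was not sorted, so that fewer cells of a type and less of the mark per cell cannot be told apart.

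By background knowledge, H3K27me1 is found along the bodies of transcribed genes, whereas H3K27me2 is a widespread product of the Polycomb methyltransferase. The LAR type phosphatases Ptprd, Ptprf and Ptprs act at presynaptic endings, where they bind adhesion proteins of the postsynaptic cell and recruit liprins inside the cell. The MAM domain type (Ptprm, Ptprk, Ptprt) mediates contact between like molecules on neighbouring cells and acts on cadherins and catenins. Ptprg carries a carbonic anhydrase-like domain that binds contactins. Ptpro and Ptprj have fibronectin repeats and a single phosphatase domain, and Ptprn2 (phogrin) is a protein of dense-core secretory granules with little activity towards phosphotyrosine.

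Coding sequence lay under few of these sites, and the stretches below are the exceptions. Each is the part of a coding exon inside a passing site, printed 5′ to 3′ on the strand of the gene from GENCODE M21 transcripts (mm10), with CG dinucleotides in capitals. The Ptprj stretch (chr2:90459442-90459700, minus strand) lay in a site that was lower in susceptible libraries, and the Ptprd stretch (chr4:76246753-76246898, minus strand) in a site that was lower in ELS plus subthreshold defeat libraries. The Ptprk stretch (chr10:28586908-28587081, plus strand) and the Ptprg stretch (chr14:12210268-12210350, plus strand) lay in sites that were higher in ELS plus subthreshold defeat libraries.
Ptprj: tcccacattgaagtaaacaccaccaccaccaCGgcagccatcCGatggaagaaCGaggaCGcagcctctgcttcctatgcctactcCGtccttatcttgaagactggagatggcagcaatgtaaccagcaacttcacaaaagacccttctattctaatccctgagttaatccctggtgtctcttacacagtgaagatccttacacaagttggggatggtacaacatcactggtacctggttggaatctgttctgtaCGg
Ptprd: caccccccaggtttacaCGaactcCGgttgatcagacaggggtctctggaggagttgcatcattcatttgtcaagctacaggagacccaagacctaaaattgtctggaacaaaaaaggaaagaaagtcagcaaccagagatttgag
Ptprk: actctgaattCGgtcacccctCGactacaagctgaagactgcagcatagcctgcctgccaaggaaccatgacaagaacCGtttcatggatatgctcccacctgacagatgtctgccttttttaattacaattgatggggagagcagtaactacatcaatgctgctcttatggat
Ptprg: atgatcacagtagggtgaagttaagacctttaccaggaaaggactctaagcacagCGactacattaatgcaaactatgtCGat
The number of CG dinucleotides was 6 of 259 bases in Ptprj, 2 of 146 in Ptprd, 3 of 174 in Ptprk and 2 of 83 in Ptprg.

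Counted over sites, H3K27me1 was more often higher than lower at these genes in each stressed group, and the genes that carried the sites changed from table to table. In susceptible against control libraries, 28 sites passed, 23 higher and 5 lower, while 50.3% of all passing sites in that table were higher and 49.7% lower. Ptprd alone held 16 of the 23 higher sites and none of the lower ones, so the excess of higher sites there was mostly that of a single gene. In resilient against control libraries, 19 passed, 14 higher and 5 lower, beside 51.7% higher and 48.3% lower over the table. All higher resilient sites lay in Ptprd and Ptprn2, and 3 of the 5 genes with a resilient site held only lower ones. In ELS plus subthreshold defeat against standard control libraries, 52 passed, 39 higher and 13 lower, beside 67% higher and 33% lower over the table, so that the share of higher sites there (75.0%) was near that of the table. H3K27me2 gave 1 higher site in susceptible and 1 higher site in resilient libraries, in tables where 69.4% and 79.5% of passing sites were higher. Groups did not overlap at either H3K27me2 site, as at 57% and 58.6% of all passing sites in those tables. The numbers of genes with a passing site were 5, 5, 1, 1 and 9 in these 5 tables; among protein-coding genes at least as long as the shortest of the 10 (64058 bp), the shares with a site were 45.2%, 39.5%, 2.44%, 3.63% and 45.3%. Over protein-coding genes of any length they were 20.9%, 15.5%, 0.808%, 1.31% and 13.5%. Among the longest 218, 218, 218, 212 and 230 protein-coding genes on chromosomes with sites, they were 67.4%, 62.4%, 12.4%, 17.5% and 94.3%. Ptprd, Ptprt, Ptprn2, Ptprg, Ptprm and Ptprk are of that length. The shares from 64058 bp upwards are thus not matched to the length of most of the 10 genes.

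**Figure D1:**
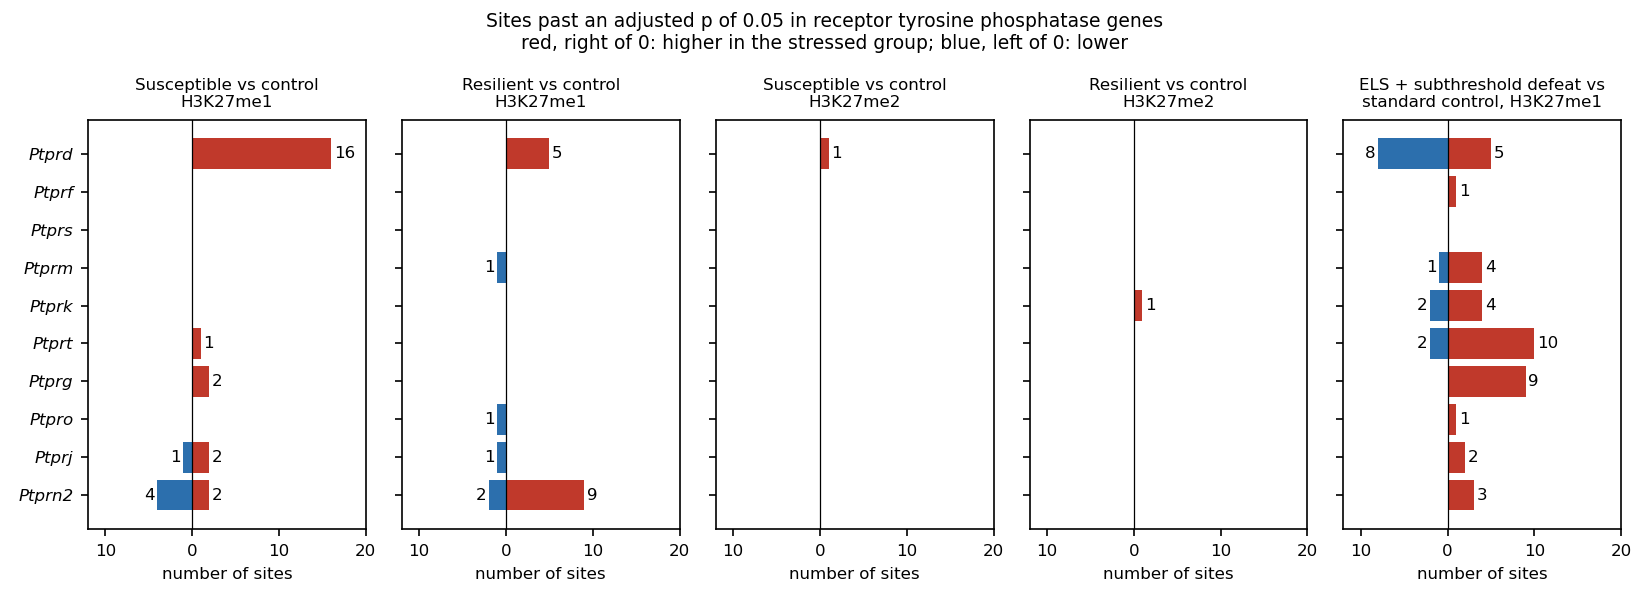
Number of passing sites in each of the 10 genes (rows) in each of the 5 tables (panels), drawn to the right where the mark was higher and to the left where it was lower in the stressed group. Ptprd held 16 higher sites in susceptible libraries, Ptprn2 held 9 in resilient libraries, and Ptprt and Ptprg held 10 and 9 in ELS plus subthreshold defeat libraries.

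The sizes of the changes were close to those of the whole tables. In the authors' deposited table, the median log2 fold change of the higher and lower sites was 0.49 and -0.46 in susceptible libraries, beside 0.43 and -0.43 over all passing sites. In resilient libraries it was 0.45 and -0.48 in the authors' deposited table, beside 0.44 and -0.43. In ELS plus subthreshold defeat libraries it was 0.88 and -1.01 in the authors' deposited table, beside 0.98 and -0.97. Stressed and control libraries did not overlap at 14 of 28 sites in susceptible, 11 of 19 in resilient and 52 of 52 in ELS plus subthreshold defeat libraries, where the background shares of non-overlapping sites were 52.8%, 54.7% and 99%.

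The tests behind the tables differed. Per the file headers, sites of the defeat cohort were tested with a G-test on summed reads, in which the libraries of a group are not told apart, and those of the ELS cohort with a negative binomial test. With limma, which takes the spread between libraries into account, every one of the 101 sites had an unadjusted p below 0.05 (the highest was 0.0376), but the sites had been selected on the same counts. Adjusted to the number of all windows tested, none of the 101 and none of any other deposited site passed 0.05 in limma. Only deposited sites could be fitted. The other windows were counted as ranking behind them, so the adjusted values are upper limits only if the limma p-values are taken as given. Those p-values rest on a spread estimated from the selected sites alone. Of the passing sites of the 5 tables, 93.3% to 98.6% had an unadjusted limma p under 0.05. The smallest limma adjusted p among the sites of these genes was 0.267 in susceptible, 0.424 in resilient and 0.0896 in ELS plus subthreshold defeat H3K27me1 libraries, and 0.627 in susceptible and 0.211 in resilient H3K27me2 libraries. Mean reads per 1000-bp bin were 22.62 to 29.54 in susceptible, 21.29 to 30.39 in resilient and 20.57 to 30.24 in their control H3K27me1 libraries. They were 5.0 to 6.44 in ELS plus subthreshold defeat and 5.4 to 7.78 in standard control libraries, so counts in that cohort were the less precise.

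Ptprd (chromosome 4, 75941238 to 78211961) encodes a presynaptic organiser of the LAR type and is the third longest protein-coding gene of the annotation, at 2.27 Mb. It held 35 of the 101 passing sites. H3K27me1 was higher at all 16 of its sites in susceptible libraries, at deposited log2 fold changes of 0.35 to 0.69 in the authors' deposited table. That made 7.05 sites per Mb, beside a median of 3.81 per Mb for the 55 protein-coding genes of at least 1 Mb on chromosomes with sites. Higher and lower sites together, Ptprn2 and Ptprj held 7.58 and 19.88 per Mb in susceptible libraries, Ptprg 2.9, Ptprt 0.88 and the other members none. In resilient and ELS plus subthreshold defeat libraries Ptprd held 2.2 and 5.73 per Mb, beside medians of 1.64 and 4.51 for genes of at least 1 Mb.

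The leading site of Ptprd, that of smallest adjusted p, was intronic (78117601 to 78119500). It held 214, 235, 136 and 212 normalised reads in susceptible libraries, against 144, 169, 103 and 162 in control libraries. The groups overlapped, because susceptible library 32 lay below 3 of the 4 control libraries. The change was 0.45 ± 0.17 on the log2 scale (SE, limma on log2 of normalised reads + 1, unadjusted p = 0.0132, n = 4 each), with an adjusted p of 2.82e-06 in the authors' deposited table. Without susceptible library 29 the limma change was 0.36 (unadjusted p = 0.0547), and without control library 31 it was 0.3 (unadjusted p = 0.0894).

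The site of Ptprd with the largest change in the susceptible table was also intronic (77895201 to 77896300). It held 75.1, 87.6, 73.8 and 91.2 normalised reads in susceptible libraries, against 41.4, 59.9, 49.1 and 52.4 in control libraries, and all susceptible libraries lay above all controls. Over the 16 sites the groups did not overlap at 7, beside 52.8% of all passing sites in the susceptible table. Susceptible library 29 was the highest of its group at 12 sites and control library 31 the lowest of its group at 10. With either left out, 12 and 13 of the 16 sites passed a rebuilt G-test.

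**Figure D2:**
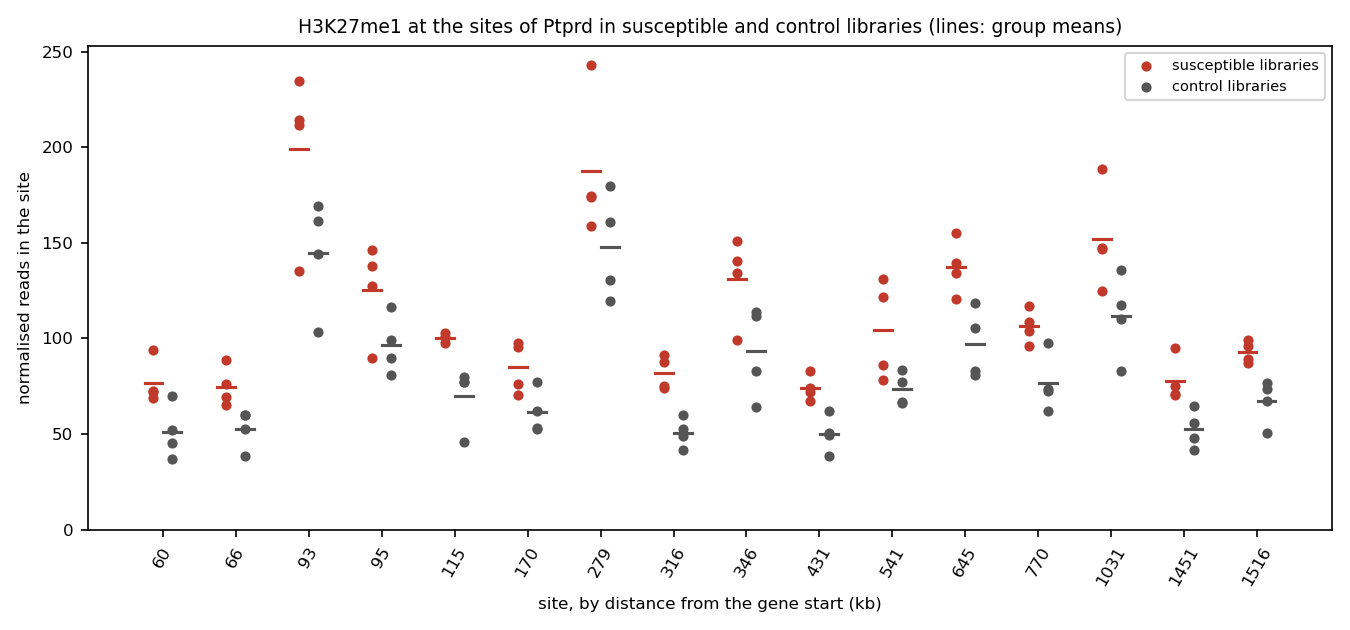
Normalised H3K27me1 reads in each susceptible and control library (points; lines are group means, n = 4 each) at the 16 sites of Ptprd, in order of distance from the gene start. Group means were higher in susceptible libraries at all 16 sites, and single libraries of the groups overlapped at 9 of them.

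All 16 sites lay between 60.3 and 1516.2 kb from the gene start, before the first coding base of any annotated transcript, which is 1886.7 kb from the start. That upstream stretch makes up 83.1% of the gene. A pair of the 16 sites (78116401 to 78117500 and 78117601 to 78119500) lay 100 bp apart and may be read as a single stretch.

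In resilient libraries, Ptprd held 5 sites, all higher, at log2 fold changes of 0.45 to 0.59 in the authors' deposited table. The leading site (intron, 76112001 to 76113200) held 89.4, 79.8, 86.2 and 93.5 normalised reads in resilient libraries, against 70.7, 61.6, 43.6 and 55.4 in control libraries. The groups did not overlap, and the change was 0.6 ± 0.15 (SE, limma log2, unadjusted p = 0.000264, n = 4 each). It was the only H3K27me1 site of Ptprd in the defeat tables that lay past the first coding base.

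At 3 places in Ptprd a susceptible and a resilient site overlapped, and both were higher at each. The overlaps spanned 1100, 1100 and 100 bp. At the one nearest the middle of the gene, susceptible libraries averaged 151.8 and their controls 111.7 normalised reads over 77180101 to 77181800, and resilient libraries averaged 119.2 and their controls 84.9 over 77180701 to 77181900. The controls of both are the same libraries, and over all sites 96.4% of 1667 such pairs had the same direction.

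After ELS plus subthreshold defeat, Ptprd held 5 higher and 8 lower sites, the only member with more lower than higher sites in that table. The leading site (77193701 to 77195200) touched an exon of a non-coding transcript. It held 37.8, 38.3 and 32.4 normalised reads in ELS plus subthreshold defeat libraries, against 62.2, 67.1 and 67.1 in standard control libraries. The groups did not overlap, and the change was -0.84 ± 0.18 (SE, limma log2, unadjusted p = 0.000341, n = 3 each), with an adjusted p of 0.00567 in the authors' deposited table.

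The leading higher site of Ptprd in that cohort was intronic (76600001 to 76601200). It held 59.6, 43.9 and 47.5 normalised reads in ELS plus subthreshold defeat libraries, against 25.7, 24.3 and 28.8 in standard control libraries. The change was 0.9 ± 0.19 (SE, limma log2, unadjusted p = 0.000299). The coding exon printed above lay in a lower site (76246001 to 76247200), with 20.6, 17.7 and 20.5 normalised reads in ELS plus subthreshold defeat libraries, against 42.5, 32.1 and 42.7 in standard control libraries. Of the 4 sites past the first coding base, 3 were lower, and the exception overlapped the untranslated end of the gene.

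At 1 place in Ptprd the cohorts met, with opposite directions. Over 77111901 to 77112900 there were 71.5, 86.5, 86.2 and 91.5 normalised reads in resilient libraries, against 81.1, 53.3, 49.1 and 55.4 in control libraries. Over 77111301 to 77112300, which shares 400 bp with it, there were 49.3, 47.6 and 59.3 in ELS plus subthreshold defeat libraries, against 86.0, 77.8 and 87.2 in standard control libraries. Resilient and control libraries overlapped through control library 25, and the ELS cohort's groups did not. No test of the difference between cohorts was made, since their tables were normalised separately. Over all passing sites, inside and outside genes, 54.5% of 55 such overlaps of resilient and ELS sites had the same direction. No susceptible site of the 10 genes overlapped an ELS site; over all passing sites, inside and outside genes, 131 pairs did, and 28.2% of them had the same direction.

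The 3 genes whose pattern was most like that of Ptprd were Erbb4, Pde4b and Hecw2. Likeness was the Euclidean distance over higher minus lower sites per 100 kb in the 5 tables, among 2489 protein-coding genes of at least 100 kb, and the distances were 0.106, 0.15 and 0.159. Erbb4, a neuregulin receptor, held 7 higher sites and no lower one in susceptible, 4 higher and 1 lower in resilient, and 1 higher and 3 lower in ELS plus subthreshold defeat libraries. In the same order, Pde4b held 3 higher and no lower, 3 higher and 2 lower, and 1 higher and 2 lower sites. Hecw2 held 8 higher and 5 lower sites in susceptible, 3 higher and 2 lower in resilient and none in ELS plus subthreshold defeat libraries. A difference of counts thus hides mixed directions.

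The other LAR type genes held little. Ptprf (chromosome 4, 118208213 to 118291405), which encodes the LAR protein itself, had a single site, in an intron and higher in ELS plus subthreshold defeat libraries. Its reads were 52.8, 70.9 and 69.04 in ELS plus subthreshold defeat libraries, against 39.5, 25.3 and 40.1 in standard control libraries, without overlap. The change was 0.88 ± 0.22 (SE, limma log2, unadjusted p = 0.00121, n = 3 each). Ptprs (chromosome 17, 56412426 to 56476483), a receptor for heparan sulphate proteoglycans, had no deposited site of either mark. It is also the shortest of the 10 genes, at 64.1 kb, and other windows were not analysed here.

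**Figure D3:**
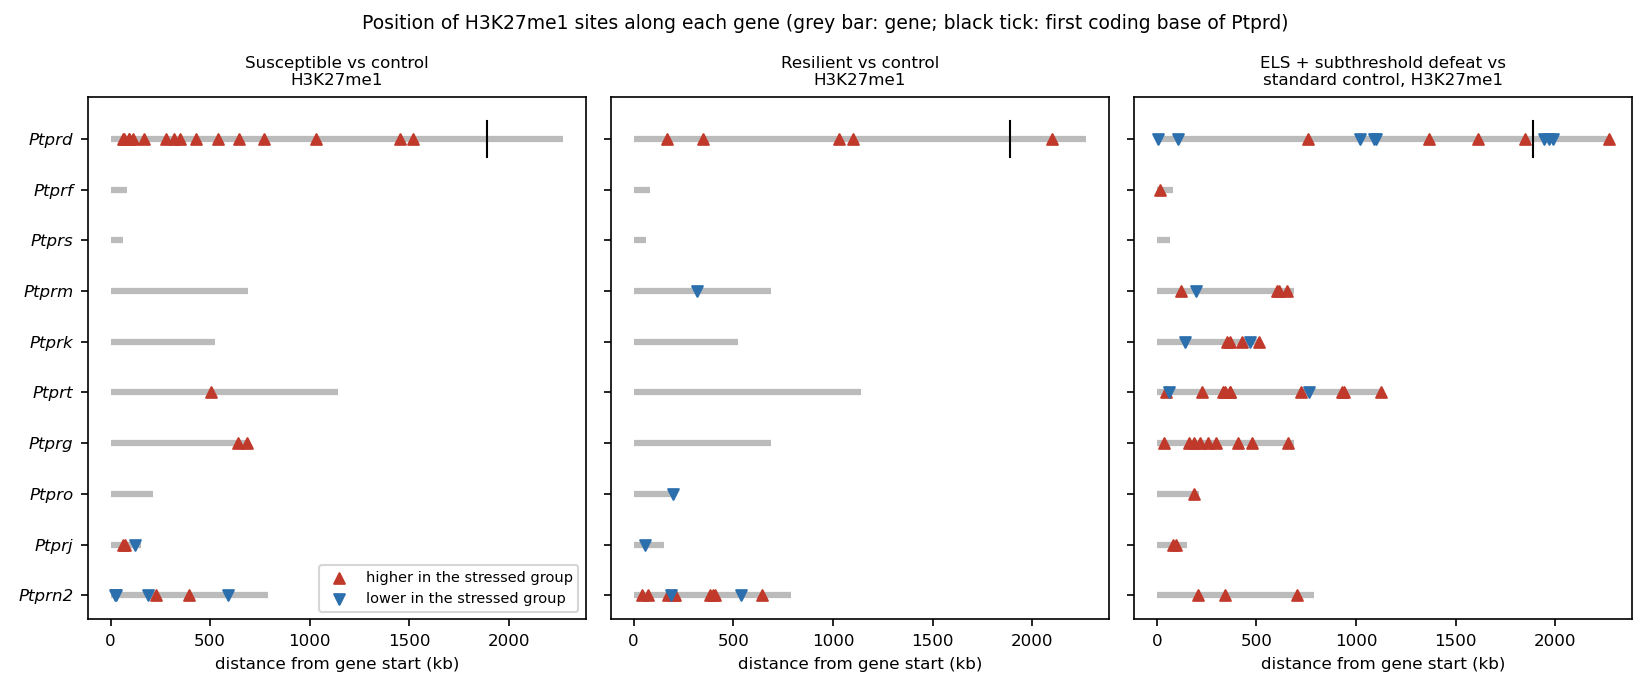
Position of the passing H3K27me1 sites along the 10 genes, in kb from the gene start, in susceptible, resilient, and ELS plus subthreshold defeat libraries. Upward marks are sites higher and downward marks sites lower in the stressed group. The 16 susceptible sites of Ptprd lay before its first coding base, 1886.7 kb from the start.

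The MAM domain genes held their sites mainly in the ELS cohort. Ptprt (chromosome 2, 161521990 to 162661147), an adhesion phosphatase of the nervous system, had 10 higher and 2 lower sites in ELS plus subthreshold defeat libraries, 1 higher site in susceptible and none in resilient libraries. Its leading ELS site (intron, 162291001 to 162292100) held 42.4, 45.7 and 47.5 normalised reads in ELS plus subthreshold defeat libraries, against 25.7, 16.5 and 22.7 in standard control libraries. The groups lay apart, and the change was 1.05 ± 0.2 (SE, limma log2, unadjusted p = 0.00011, n = 3 each). The site next to it (162292501 to 162293500) was 400 bp away and also higher.

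The leading lower site of Ptprt (intron, 161896801 to 161897900) held 11.5, 14.9 and 23.7 normalised reads in ELS plus subthreshold defeat libraries, against 42.5, 34.02 and 36.6 in standard control libraries. That was a change of -1.18 ± 0.24 (SE, limma log2, unadjusted p = 0.000169). The susceptible site of Ptprt (intron, 162157001 to 162158000) lay elsewhere in the gene. It held 68.2, 83.1, 92.0 and 83.0 normalised reads in susceptible libraries, against 67.1, 55.3, 65.1 and 45.3 in control libraries, and the lowest susceptible library was just above the highest control. The change was 0.49 ± 0.15 (SE, limma log2, unadjusted p = 0.0028, n = 4 each), and the site did not pass a rebuilt G-test without control library 34.

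Ptprm (chromosome 17, 66666947 to 67354457) encodes a phosphatase that binds its own kind on the next cell. It had 4 higher and 1 lower site in ELS plus subthreshold defeat libraries. The leading one (intron, 66739601 to 66741000) held 51.6, 39.2 and 46.4 normalised reads in ELS plus subthreshold defeat libraries, against 20.8, 19.4 and 24.4 in standard control libraries. The change was 1.05 ± 0.19 (SE, limma log2, unadjusted p = 7e-05), with an adjusted p of 0.0018 in the authors' deposited table. This site also overlaps Gm47471, an antisense gene, and CUT&RUN reads do not tell the genes apart.

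Lower sites of Ptprm were found in both cohorts. The lower ELS site (67158301 to 67159600) held 22.9, 24.3 and 20.5 normalised reads in ELS plus subthreshold defeat libraries, against 46.4, 37.9 and 54.1 in standard control libraries. In resilient libraries, a site elsewhere in the gene (67038601 to 67039600) held 59.6, 50.99, 65.7 and 62.6 normalised reads, against 81.1, 113.8, 71.96 and 75.4 in control libraries. Neither pair of groups overlapped, and the changes were -0.99 ± 0.2 and -0.49 ± 0.15 (SE, limma log2).

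Ptprk (chromosome 10, 28074820 to 28597397), the third MAM domain gene, had 4 higher and 2 lower sites in ELS plus subthreshold defeat libraries and no H3K27me1 site in the defeat cohort. Its leading site (intron, 28540101 to 28541100) was lower. It held 11.5, 19.6 and 16.2 normalised reads in ELS plus subthreshold defeat libraries, against 40.5, 30.1 and 58.4 in standard control libraries. At -1.37 ± 0.25 (SE, limma log2, unadjusted p = 6.73e-05, n = 3 each) this was the largest change among the leading sites of the 10 genes in all 5 tables.

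The leading higher site of Ptprk (intron, 28440701 to 28441800) held 42.4, 54.1 and 40.99 normalised reads in ELS plus subthreshold defeat libraries, against 27.7, 18.5 and 24.4 in standard control libraries. The coding exon printed above lay in another higher site (28586601 to 28587600), with 26.4, 35.5 and 39.9 normalised reads in ELS plus subthreshold defeat libraries, against 18.8, 9.72 and 18.3 in standard control libraries. The groups overlapped at neither site.

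H3K27me2 touched these genes at 2 sites in all, both intronic and higher. In Ptprk (28562901 to 28563900), resilient libraries held 99.9, 73.7, 92.2 and 78.9 normalised H3K27me2 reads, against 56.9, 55.6, 60.8 and 55.1 in control libraries, a change of 0.58 ± 0.16 (SE, limma log2, unadjusted p = 0.00142, n = 4 each). In Ptprd (76771701 to 76772800), susceptible libraries held 83.3, 89.5, 80.3 and 97.9 normalised H3K27me2 reads, against 66.7, 47.1, 79.7 and 63.9 in control libraries. The highest control lay just under the lowest susceptible library there, and the change was 0.46 ± 0.17 (SE, limma log2, unadjusted p = 0.0162). Control library 52, the lowest of the control values in Ptprd, was also among the shallowest H3K27me2 libraries, which ranged from 10.62 to 40.45 reads per 1000-bp bin in the controls of that table. The part of depth in its low value was not tested. Without control library 52, or without susceptible library 59, the Ptprd site did not pass a rebuilt G-test. Neither H3K27me2 site overlapped an H3K27me1 site.

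Ptprg (chromosome 14, 11553532 to 12242041), whose carbonic anhydrase-like domain binds contactins, held no lower site. Its 9 passing sites in the ELS cohort had log2 fold changes of 0.66 to 1.22 in the authors' deposited table. The leading site (intron, 11808801 to 11809800) held 38.99, 44.8 and 53.9 normalised reads in ELS plus subthreshold defeat libraries, against 21.7, 25.3 and 12.2 in standard control libraries. The change was 1.22 ± 0.25 (SE, limma log2, unadjusted p = 0.000174, n = 3 each), and the groups did not overlap. The site with the printed exon (12208901 to 12210500) held 67.7, 66.3 and 56.1 normalised reads in ELS plus subthreshold defeat libraries, against 35.6, 34.99 and 39.2 in standard control libraries.

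A further Ptprg site (11554201 to 11555500) lay by the first exon, 620 bp from the nearest transcript start, and was the only deposited site of the 10 genes that did not pass. It held 35.6, 38.3 and 56.1 normalised reads in ELS plus subthreshold defeat libraries, against 22.7, 23.3 and 25.3 in standard control libraries, with an adjusted p of 0.0641 in the authors' deposited table. In susceptible libraries Ptprg had 2 higher sites near its far end, 639.1 and 682.5 kb from the start, of which 1 passed a rebuilt G-test without susceptible library 26, control library 31 or control library 34. The leading one (intron, 12191801 to 12193500) held 145, 133, 129 and 137 normalised reads in susceptible libraries, against 112, 91.0, 81.1 and 78.1 in control libraries. The change was 0.59 ± 0.14 (SE, limma log2, unadjusted p = 0.000253, n = 4 each), and the susceptible libraries were close to each other. The adjusted p was 1.27e-06, the smallest of all sites in the 10 genes in the authors' deposited table.

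Ptprj and Ptpro encode phosphatases with fibronectin repeats. Ptprj (chromosome 2, 90429754 to 90580647), which acts on growth factor receptors and Src kinases, had 2 higher and 1 lower site in susceptible, 1 lower site in resilient and 2 higher sites in ELS plus subthreshold defeat libraries. The leading susceptible site (intron, 90508601 to 90509700) held 93.9, 117, 83.5 and 94.8 normalised reads in susceptible libraries, against 77.2, 49.5, 72.5 and 71.9 in control libraries. The change was 0.53 ± 0.15 (SE, limma log2, unadjusted p = 0.00195). The lower susceptible site (90458701 to 90459700), which holds the printed exon, had 64.2, 79.5, 78.7 and 69.3 normalised reads in susceptible libraries, against 74.5, 102.5, 118 and 98.5 in control libraries, and the groups overlapped through control library 25.

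In resilient libraries, the Ptprj site (intron, 90523801 to 90525100) held 52.8, 65.4, 72.5 and 58.8 normalised reads, against 99.95, 103, 102.5 and 86.3 in control libraries. All resilient libraries lay below all controls, and the change was -0.65 ± 0.14 (SE, limma log2, unadjusted p = 5.82e-05, n = 4 each). It lay apart from the 3 susceptible sites of the gene. The leading ELS site of Ptprj (90499901 to 90500900) held 76.8, 65.3 and 66.9 normalised reads in ELS plus subthreshold defeat libraries, against 42.5, 43.7 and 39.2 in standard control libraries, a change of 0.72 ± 0.18 (SE, limma log2, unadjusted p = 0.0013). The second ELS site also overlaps the antisense gene 4933423P22Rik.

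Ptpro (chromosome 6, 137252319 to 137463233), which acts on Eph receptors in axon guidance, had a site in 2 tables. In resilient libraries the site (intron, 137450101 to 137451400) held 81.7, 95.3, 84.3 and 100.2 normalised reads, against 98.1, 122, 124 and 117 in control libraries. The groups overlapped through resilient library 36, the change was -0.35 ± 0.14 (SE, limma log2, unadjusted p = 0.017), and without resilient library 27 it was -0.3 (unadjusted p = 0.0551). Another intronic site (137437501 to 137438500) held 55.1, 52.3 and 50.7 normalised reads in ELS plus subthreshold defeat libraries, against 34.6, 27.2 and 25.3 in standard control libraries, a change of 0.85 ± 0.19 (SE, limma log2, unadjusted p = 0.000473).

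Ptprn2 (chromosome 12, 116485720 to 117276849), the secretory granule protein, had sites of both directions in the defeat tables. There were 2 higher and 4 lower sites in susceptible libraries and 9 higher and 2 lower sites in resilient libraries; the difference between these tables, which use the same controls, was not tested. The leading resilient site (intron, 116893201 to 116895400) held 234, 183, 193 and 214 normalised reads in resilient libraries, against 154, 128.0, 153 and 167 in control libraries. The groups did not overlap, and the change was 0.45 ± 0.14 (SE, limma log2, unadjusted p = 0.00284, n = 4 each), with an adjusted p of 1.58e-05 in the authors' deposited table.

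The leading susceptible site of Ptprn2 (intron, 116673801 to 116674800) was lower. It held 45.4, 48.8, 41.1 and 55.6 normalised reads in susceptible libraries, against 73.6, 66.8, 89.6 and 69.2 in control libraries, a change of -0.64 ± 0.14 (SE, limma log2, unadjusted p = 0.00013, n = 4 each) without overlap. The leading lower resilient site (116672201 to 116673200) lay 600 bp from it. That site held 71.5, 56.5, 51.9 and 67.4 normalised reads in resilient libraries, against 83.9, 94.8, 78.5 and 88.1 in control libraries, again without overlap. The pairing of these neighbours was noticed after their values were seen.

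The leading higher susceptible site of Ptprn2 (116879601 to 116881400) held 154, 154, 152 and 169 normalised reads in susceptible libraries, against 129.65, 111, 111 and 125 in control libraries. It shared 400 bp with a resilient site that was also higher. Of the 3 ELS sites, all higher, the leading one (116828501 to 116829800) held 86.0, 79.3 and 111 normalised reads in ELS plus subthreshold defeat libraries, against 53.4, 49.6 and 61.02 in standard control libraries, a change of 0.73 ± 0.2 (SE, limma log2, unadjusted p = 0.00211). Another (116692901 to 116693900) lay 300 bp from a higher resilient site, with 103, 131 and 112 normalised reads in ELS plus subthreshold defeat libraries, against 67.2, 70.95 and 80.2 in standard control libraries.

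**Figure D4:**
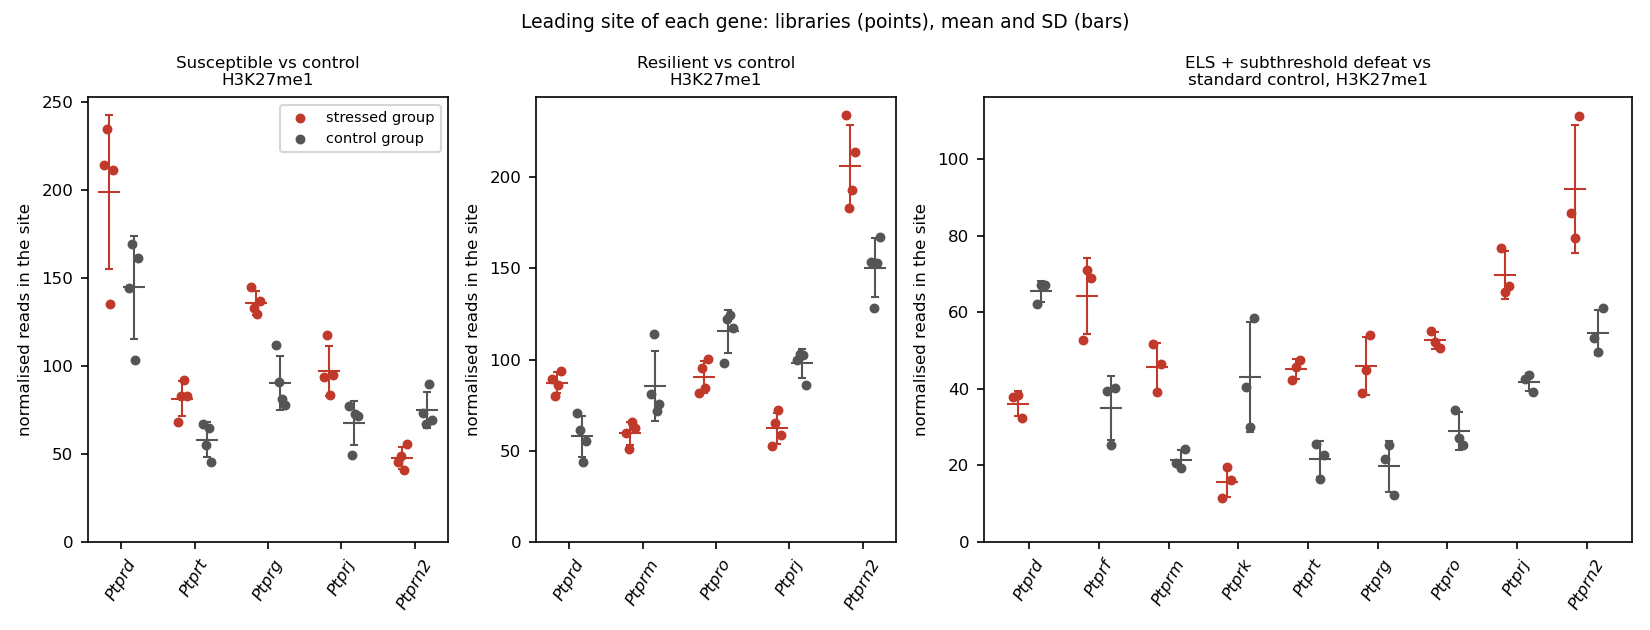
Normalised H3K27me1 reads in each library at the leading site of each gene in the susceptible, resilient, and ELS plus subthreshold defeat comparisons (bars are means and SD, n = 4, 4 and 3 per group). Of the 5 susceptible leading sites 4 were higher, of the 5 resilient ones 2 were higher, and of the 9 in the ELS cohort 7 were higher in the stressed group.

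Nearly all sites of these genes lay inside introns. Of the 101 passing sites, 95 (94.1%) were intronic, and 1 reached within 1000 bp of an annotated transcript start, in Ptprk. An exon was touched by 1 of 28 sites in susceptible (3.6%), 0 of 19 in resilient and 5 of 52 in ELS plus subthreshold defeat libraries (9.6%). Over all sites in protein-coding gene bodies the shares in these 3 tables were 34.1%, 30.6% and 24.2%. Gene length and exon content were not matched in this comparison, and most of the 10 genes are long, so it does not show a preference of the sites for introns.

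The mark stood close to the IgG background in the ELS cohort, where the authors' ratio over IgG at the passing sites had a median of 1.31 in ELS plus subthreshold defeat and 0.86 in standard control libraries. In the defeat tables, the authors' ratio over IgG was at least 1.19 at each passing site of the 10 genes, in both groups. In ELS plus subthreshold defeat against standard control libraries, the standard controls had a ratio under 1 at 31 of the 39 higher sites (79.5%, beside 81.0% of all higher sites). At 26 of the 39 (66.7%, beside 55.6% of all), the ratio was above 1 in ELS plus subthreshold defeat and under 1 in standard control libraries. At 10 of the 13 lower sites the ELS plus subthreshold defeat group had a ratio under 1 (76.9%, beside 63.2% of all lower sites). At 3 of 23 higher sites in susceptible and 3 of 14 in resilient libraries, the ratio was lower in the stressed group although its reads were higher, beside 8.6% and 13.0% of all higher sites in those tables; the part of the IgG libraries in this was not tested.

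**Figure D5:**
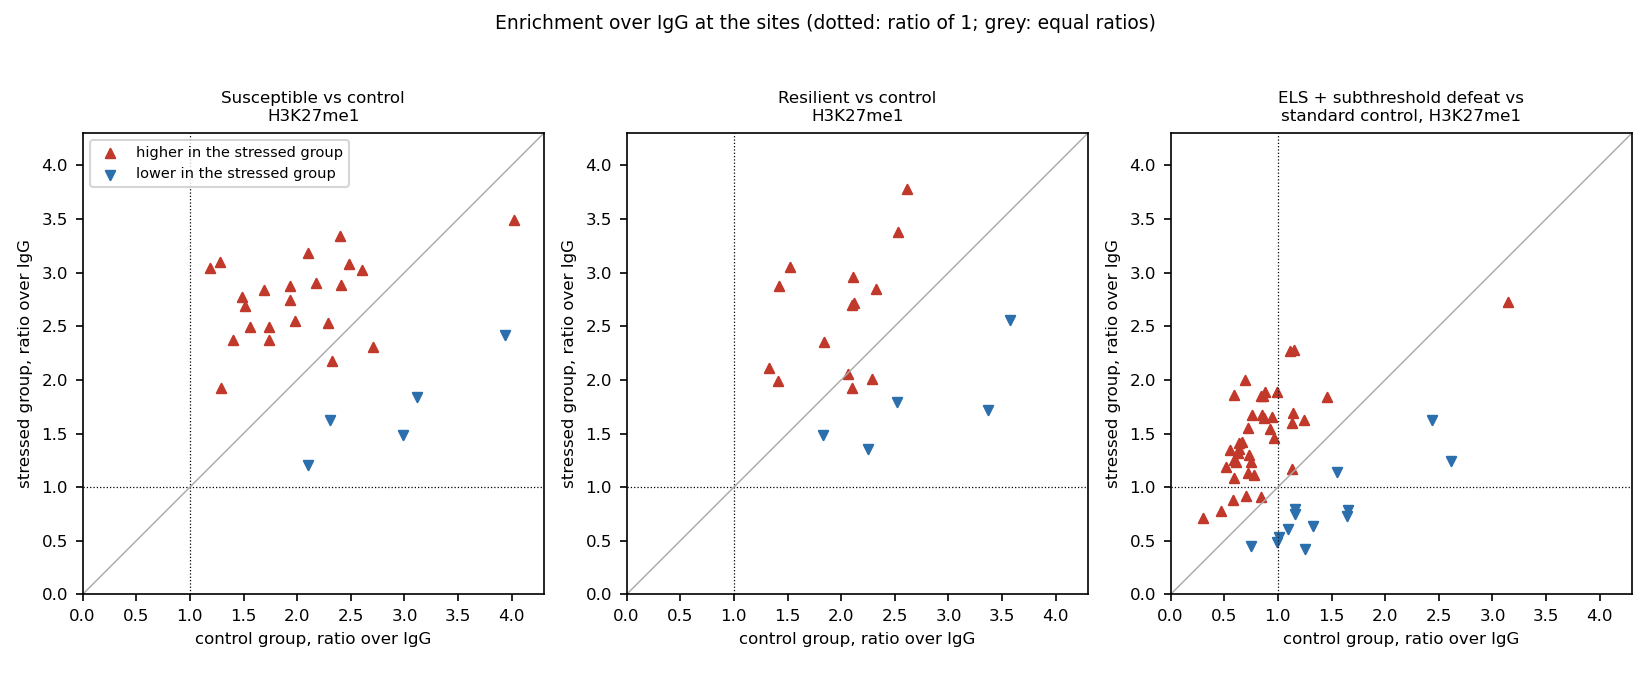
The authors' ratio over IgG at each passing H3K27me1 site of the 10 genes, stressed group on the vertical and control group on the horizontal axis, for the susceptible, resilient, and ELS plus subthreshold defeat tables. All defeat sites lie above a ratio of 1 on both axes, whereas 31 of the 39 higher ELS sites lie left of it.

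Most sites in genes of known binding partners were higher in the defeat tables, but a few genes held most of them. Of partners outside the cell (Slitrk, Il1rapl, Lrfn, contactin and proteoglycan genes), 9 of 21 on chromosomes with sites held a site in susceptible libraries, 73 higher and 12 lower, with a median log2 fold change of 0.42 in the authors' deposited table, beside 0.26 over all sites. For single genes the background share with a site was 20.9%. In resilient libraries 8 of 21 held a site, 21 higher and 13 lower, with a median of 0.36 in the authors' deposited table, beside 0.3 over all sites and a share of genes of 15.5%. In ELS plus subthreshold defeat libraries 14 of 26 held a site, 11 higher and 28 lower, with a median of -0.75 in the authors' deposited table, beside 0.88 over all sites and a share of genes of 13.5%. These medians take higher and lower sites together, so they follow the share of higher sites and do not measure the size of the changes. Over all passing susceptible sites, the higher ones had a median of 0.43 and the lower ones of -0.43. The genes in this list are often long, and length was not matched.

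Single partner genes carried much of these counts. Lrfn5, a postsynaptic adhesion protein that binds LAR type phosphatases, had 25 sites in susceptible libraries, all higher, and 2 in ELS plus subthreshold defeat libraries, both lower. Its leading susceptible site (chromosome 12, 61640401 to 61643000) averaged 377 ± 71.4 normalised reads over the susceptible libraries and 288 ± 40.4 over the controls (SD, n = 4 each). Cntn4, a contactin that binds Ptprg, had 5 higher sites in susceptible libraries, 1 higher and 2 lower in resilient libraries and 8 lower in ELS plus subthreshold defeat libraries. Its leading ELS site (chromosome 6, 106355701 to 106357200) averaged 83.2 ± 10.6 normalised reads in ELS plus subthreshold defeat and 141 ± 18.1 in standard control libraries (SD, n = 3 each). Cntn3 led the resilient count with 6 higher and 3 lower sites. Lower sites with the smallest adjusted p lay in Agrn, the heparan sulphate proteoglycan agrin, with 215 ± 17.4 normalised reads over the susceptible libraries and 274.5 ± 51.4 over the controls. Agrn was also lower in resilient libraries, at 260.2 ± 26.9 against 333 ± 50.3 normalised reads in control libraries. For H3K27me2, Cntn6 held 3 sites in susceptible and 4 in resilient libraries, all higher, and Gpc6 held 1 lower site in resilient libraries. Thus 1 of 21 and 2 of 20 of these partner genes held an H3K27me2 site, beside 0.808% and 1.31% of all protein-coding genes. Of all passing H3K27me2 sites, 69.4% and 79.5% were higher.

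Among partners inside the cell (liprins, Trio, cadherin, catenins and kinases), 8 of 21 held a site in susceptible libraries, 35 higher and 12 lower, 9 of 21 in resilient libraries, 19 higher and 6 lower, and 7 of 21 in ELS plus subthreshold defeat libraries, 7 higher and 2 lower. The background shares of genes with a site were 20.9%, 15.5% and 13.5%. The median log2 fold changes were 0.42, 0.43 and 0.66 in the authors' deposited table, in that order, beside 0.26, 0.3 and 0.88 over all sites. Here too the medians take both directions together and do not measure the size of the changes. In susceptible libraries, 5 of the 8 genes held only lower sites (Trio, Ctnnb1, Src, Abl1 and Arhgap1), 2 only higher ones and 1 both. Among the liprins, Ppfia1 had 1 higher and 2 lower sites in resilient libraries and 1 higher site in ELS plus subthreshold defeat libraries. Ppfia2, another liprin, had 24 sites in susceptible libraries, all higher, 8 higher and 1 lower in resilient libraries and 1 higher in ELS plus subthreshold defeat libraries. Its leading susceptible site (chromosome 10, 106806401 to 106809400) averaged 282 ± 29 normalised reads over the susceptible libraries and 204 ± 39.9 over the controls (SD, n = 4 each). Trio, an exchange factor that binds LAR, had 4 lower sites in susceptible libraries, the leading one with 144 ± 11.8 normalised reads over the susceptible libraries and 187 ± 35.6 over the controls. It had 3 higher and 1 lower site in resilient libraries. Its 1 ELS site was higher, at 152 ± 0.4 normalised reads in ELS plus subthreshold defeat and 96.0 ± 7.7 in standard control libraries (SD, n = 3 each).

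Of the 11 other receptor phosphatase genes listed, 10 could be counted, as protein-coding genes of the annotation on chromosomes with sites. Those with an H3K27me1 site numbered 1 in susceptible, 2 in resilient and 5 in ELS plus subthreshold defeat libraries, beside 20.9%, 15.5% and 13.5% of all protein-coding genes and 45.2%, 39.5% and 45.3% of those of at least 64058 bp. In susceptible libraries, Ptpra, a widely expressed activator of Src kinases, was the single one with sites, and all 5 were lower. The leading one (chromosome 2, 130516501 to 130519100) averaged 192 ± 26.3 normalised reads over the susceptible libraries and 255 ± 16.7 over the controls (SD, n = 4 each). In resilient libraries, Ptpra and Ptprr had 1 higher site each. After ELS plus subthreshold defeat, Ptpre, Ptprq and Ptprr had 1 higher and Ptprn and Ptpru 1 lower site each. For H3K27me2, Ptprc, a leukocyte phosphatase, had 1 higher site in susceptible and 1 in resilient libraries, and Ptprq had 2 higher and 1 lower site in resilient libraries. An H3K27me2 site was held by 0.808% and 1.31% of all protein-coding genes in those comparisons, and by 2.44% and 3.63% of those of at least 64058 bp. Of all passing H3K27me2 sites, 69.4% and 79.5% were higher.

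Tables of differential sites give no level of cell type markers from which the tissue label could be checked. The marker counts that follow stand beside 20.9%, 15.5% and 13.5% of protein-coding genes with a site in the susceptible, resilient, and ELS plus subthreshold defeat H3K27me1 tables. Of 10 markers of medium spiny neurons, Foxp1 alone held a site: 2 higher in susceptible, 2 higher and 1 lower in resilient, and 4 higher in ELS plus subthreshold defeat libraries. Of 5 microglial markers, Cx3cr1 held 6 lower sites in susceptible and 1 lower in resilient libraries, and P2ry12 held 1 lower in ELS plus subthreshold defeat libraries. Of 5 oligodendrocyte markers, Myrf held 1 lower site in susceptible and Mbp 1 higher site in ELS plus subthreshold defeat libraries. None of 5 astrocyte and 3 endothelial markers held a passing site in any table. The part of cell makeup in the changes at the phosphatase genes was not tested.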

How the data were processed

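The submitters' processing notes name mm10, Bowtie2 2.4.1, MACS2 2.2.6, SAMtools 1.10, Trim Galore 0.6.5 and cutadapt 2.10, without saying which step each served. Per the file headers, diffReps 1.55.4 compared the groups in 1000-bp windows moved by 100 bp, taking fragments of 100 bp, a p limit of 0.0001 and the IgG libraries as background. The deposited signal is reads per site and library after division by a library constant, per the file headers; group means are the authors'. The deposited log2 fold change is the stressed over the control mean, the deposited ratio is group signal over IgG, and the deposited p-value was adjusted by Benjamini-Hochberg over 270324, 275586, 48304, 52728 and 1287727 windows (susceptible and resilient H3K27me1, susceptible and resilient H3K27me2, ELS H3K27me1), per the file headers. The names of the defeat tables point to a negative binomial test, but a G-test rebuilt from the deposited values came within 0.05 log10 units of the authors' p at 99.0% to 99.9% of sites, so the headers were followed.

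Sites were assigned to genes of GENCODE M21, which uses the same build. Calls are the authors' adjusted p under 0.05. A leading site is that of smallest adjusted p of a gene in a table, then of largest change, with a further one for the other direction; partner genes were named for most sites or smallest adjusted p in a direction. limma 3.58.1 (R 4.3.3) was run on log2(normalised reads + 1) over all sites of a table, which understates the change of low counts, and was tested on simulated data. Its p-values were adjusted to the header's number of windows, although only the deposited sites had a limma p. Tables and plots were made with matplotlib 3.10.9, scipy 1.17.1, numpy 2.4.6 and pandas 2.3.3 under Python 3.11.15. The genes, lists and rules were chosen with earlier results of these data known. Tables were normalised separately, so that levels were compared only within a table.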

Additional observations from a re-analysis of the deposited data

Results flagged for a closer look

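At the leading higher site of Ptprn2 in the susceptible H3K27me1 table, susceptible library 35 stood apart from the rest of its group, with 168.7 normalised reads against 152.46 to 154.42 in the other susceptible libraries. Of 30 groups of 4 libraries examined at leading sites this was the only one set apart, and chance sets apart about 1 in 20. In Ptprd, a resilient H3K27me1 site and an ELS plus subthreshold defeat H3K27me1 site overlapped with opposite directions, at log2 fold changes of 0.49 and -0.68 in the authors' deposited table. Every resilient library lay above its control mean and every ELS plus subthreshold defeat library below its own, and the difference between the cohorts was not tested.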

How the results depend on the processing

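No paired analysis was possible because each library carries a number of its own, which no other group shares. Counting gene bodies without the 1000 bp before the start, requiring the midpoint of a site inside the gene, requiring a mean of 10 reads, or using limma at an unadjusted p of 0.05 kept each count of passing sites within 1.5 times its value. An enrichment over IgG above 1 in a group did so too. With an adjusted p under 0.01, the ELS plus subthreshold defeat count was 26 in place of 52. With an adjusted p under 0.001, the susceptible H3K27me1 count was 17 in place of 28, the resilient H3K27me1 count 6 in place of 19, the susceptible H3K27me2 count 0 in place of 1 and the ELS plus subthreshold defeat count 0. With limma adjusted to the number of all windows, each of the 5 counts was 0, whereas 28, 19, 1, 1 and 52 sites had an unadjusted limma p under 0.05. Leaving out each library gave 22 to 28 susceptible and 15 to 18 resilient H3K27me1 sites, and 0 to 1 susceptible and 1 to 1 resilient H3K27me2 sites. These had to reach, in a rebuilt G-test, the largest p that passed in their table. The ELS count was 52 to 52 at an unadjusted limma p under 0.05, a milder limit. With all libraries the highest limma p of the 52 was already 0.00626, so the ELS range does not show greater stability than the others. The lowest susceptible H3K27me1 count, 22, was without control library 31. Of leading sites with an unadjusted limma p under 0.05, 4 to 5 of 5 in susceptible and 4 to 5 of 5 in resilient H3K27me1, 0 to 1 of 1 in susceptible H3K27me2, 1 to 1 of 1 in resilient H3K27me2 and 9 to 9 of 9 in ELS libraries remained. No leading site changed sign under another pseudocount (0.5 or 5), a variance trend, a minimum of 10 reads or with a library left out. Another normalisation and a count model were not run, since the files give no column of raw counts. The low depth of the ELS cohort limits its precision.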
